A study of Mus musculus with 2 samples.

Results

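The enzymes that build sphingolipids and the galactolipids of myelin were followed in sciatic nerve of mice at postnatal day 7, in 1 Tsc1cKO library and 1 control library. Nerve RNA was profiled by RNA sequencing, and each gene had 1 FPKM value (mapped fragments per kilobase of transcript, scaled to the size of the library) in each library. Tsc1 encodes a subunit of the TSC complex, which holds the kinase complex mTORC1 in check, and the study asked how its loss changes Schwann cell proliferation and differentiation. The names under which the tables were deposited read as Tsc1 c/c with Dhh-cre for Tsc1cKO and Tsc1 c/+ with Dhh-cre for control. Read that way, the control animals also carried Cre and 1 conditional copy of Tsc1, and the gene was deleted in cells in which the promoter of desert hedgehog, a Schwann cell signal, had been active. The labels give only Tsc1cKO and control, on a mixed strain, and do not say how many animals stand behind a library. The members were 9 genes chosen by name, Sptlc1, Sptlc2, Degs1, Fa2h, Ugt8a, Gal3st1, Ugcg, Sgms1 and Sgms2, of 22093 gene symbols with usable values. All 9 stood on 1 table entry each with an estimate marked as usable in both libraries, all reached 1 FPKM in both, and no span overlapped that of another gene in the tables.

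Sphingolipids start in the endoplasmic reticulum, where serine palmitoyltransferase, a complex that contains the products of Sptlc1 and Sptlc2, joins serine to a fatty acid. Ceramide synthases then add a further fatty acid, and the desaturase encoded by Degs1 completes ceramide. Ceramide becomes sphingomyelin through Sgms1 and Sgms2, glucosylceramide, the root of the gangliosides, through Ugcg, or galactosylceramide through Ugt8a. Galactosylceramide and its sulfated form, sulfatide, made by the product of Gal3st1, are abundant in myelin, and Fa2h adds the hydroxyl group that many of their fatty acids carry.

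The bases just before the annotated transcript starts are shown for 4 members, 2 of the galactolipid branch and the pair that encodes the large subunits of serine palmitoyltransferase, because the genes within each pair differed unequally between the libraries. The sequences are from RefSeq on the build GRCm38.p6, 5′ to 3′ on the strand of the gene, and cover 250 bases before the 5′-most start in the table. They lie at chr3:125938653-125938902 on the minus strand (Ugt8a), chr11:3983386-3983635 on the plus strand (Gal3st1), chr12:87388356-87388605 on the minus strand (Sptlc2) and chr13:53377362-53377611 on the minus strand (Sptlc1). Capitals mark letters that match 1 of 5 short motifs on either strand. The EGR-type zinc finger motif was searched as GCGNGGGCG. The GC box was searched as the letters GGGCGG. The letters for the CCAAT box are its name. The E-box was searched as the letters CACGTG. The SOX-type motif was searched as the letters ACAAAG.
Ugt8a: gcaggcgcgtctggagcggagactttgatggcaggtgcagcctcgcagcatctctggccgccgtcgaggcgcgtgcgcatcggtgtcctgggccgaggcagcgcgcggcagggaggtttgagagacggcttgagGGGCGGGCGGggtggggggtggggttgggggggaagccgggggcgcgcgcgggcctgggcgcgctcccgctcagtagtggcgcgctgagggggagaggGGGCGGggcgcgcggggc
Gal3st1: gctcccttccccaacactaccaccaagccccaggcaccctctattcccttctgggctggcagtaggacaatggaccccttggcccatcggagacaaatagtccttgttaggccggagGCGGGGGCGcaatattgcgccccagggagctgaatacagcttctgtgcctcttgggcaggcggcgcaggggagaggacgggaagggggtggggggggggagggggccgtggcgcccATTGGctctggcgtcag
Sptlc2: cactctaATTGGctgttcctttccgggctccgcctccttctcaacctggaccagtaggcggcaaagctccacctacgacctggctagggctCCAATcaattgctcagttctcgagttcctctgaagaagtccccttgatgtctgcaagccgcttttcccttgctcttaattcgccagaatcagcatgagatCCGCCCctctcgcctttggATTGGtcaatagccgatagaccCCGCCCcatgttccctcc
Sptlc1: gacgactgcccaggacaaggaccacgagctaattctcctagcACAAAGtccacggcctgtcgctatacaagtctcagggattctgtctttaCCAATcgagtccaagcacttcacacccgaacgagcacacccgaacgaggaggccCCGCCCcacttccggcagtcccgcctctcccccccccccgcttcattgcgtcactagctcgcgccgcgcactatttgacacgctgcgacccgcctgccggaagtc
The Ugt8a window held 3 GC boxes, of which the first 2 overlap, and none of the other 4 motifs. The Gal3st1 window held the EGR-type motif at base 118 and a CCAAT box at base 234, counted from the 5′ end of the window. The Sptlc2 window held 3 CCAAT boxes and 2 GC boxes, and the Sptlc1 window held 1 CCAAT box, 1 GC box and 1 SOX-type motif. Among 32851 windows of this length in the same table, 4.70% held the EGR-type motif, 32.7% a GC box, 33.9% a CCAAT box, 6.02% an E-box and 16.5% the SOX-type motif. Of the 9 members, 8 had at least 1 window, 18 in all, and among these 18 the EGR-type motif was found in 2, both overlapping windows of Gal3st1. An E-box was found in 2 windows, those of Degs1 and of 1 start of Sgms2. The motifs were chosen with the sequences in view, and a match is a description of letters only.

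Transcripts of Schwann lineage genes were present in both nerve libraries. The 15 Schwann lineage genes were all measured, with a summed level of 2839 FPKM in Tsc1cKO and 3062 FPKM in control. As deposited, beside 33.0% lower and 67.0% higher among all measured genes, 8 of the 15 were lower and 7 higher. Their 3 highest genes were lower in Tsc1cKO, Cryab at 757 FPKM against 905 FPKM in control, Cadm4 at 603 FPKM against 706 FPKM in control, and Plekha4 at 208 FPKM against 397 FPKM in control. Sox10, a factor of that lineage chosen for its role, was at 246 FPKM in Tsc1cKO and 212 FPKM in control. Tsc1 itself was at 2.28 FPKM in Tsc1cKO and 3.76 FPKM in control, a value over the full gene and every cell type present. There were no replicates and the read depth is unknown, so no difference has a replicate check or an interval, and higher or lower describes these 2 libraries. Differences are given as log2(FPKM + 1) in Tsc1cKO minus control, a scale on which changes of weakly expressed genes come out too small. They are also given centred, after Tsc1cKO was multiplied by 0.849 to bring the median log2 ratio to 0 over 7844 genes that reached 5 FPKM in both, which removes a shift of 0.24. In whole nerve, fewer cells of a type and less RNA per cell cannot be told apart.

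Expression of 8 of the 9 genes was lower in Tsc1cKO as deposited, and of all 9 when centred, with the largest differences in Ugt8a and Fa2h. At least 2-fold lower values were found for 2 of the 9 as deposited, beside 3.06% of the 12409 measured genes (those that reached 1 FPKM in either library), and for 4 of the 9 when centred, beside 4.69% of all genes. None of the 9 was at least 2-fold higher, beside 5.03% of all genes as deposited and 2.89% when centred. The median difference of the 9 genes was −0.68 (−0.91 centred), against 0.20 (−0.01 centred) over all measured genes. Over all measured genes, 33.0% were lower in Tsc1cKO as deposited and 50.9% when centred.

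**Figure D1:**
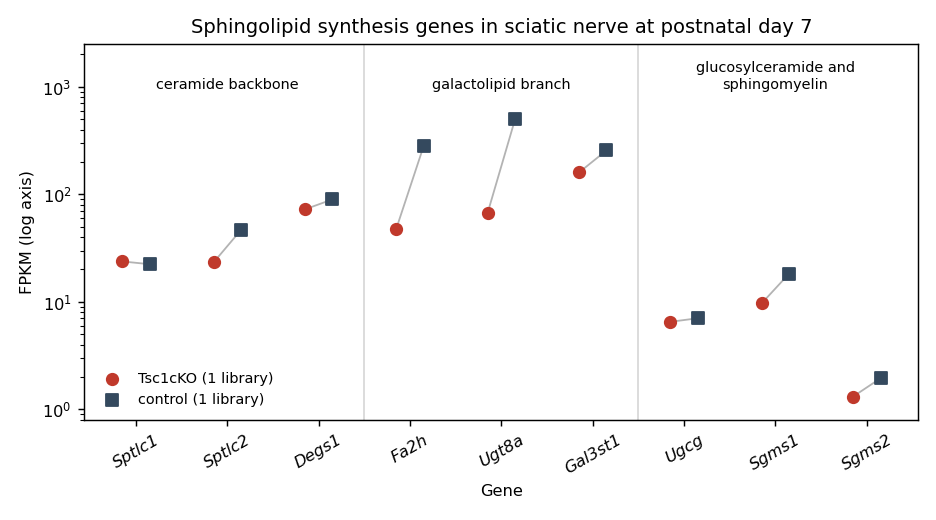
FPKM on a log axis of the 9 sphingolipid synthesis genes, ordered by role, in the Tsc1cKO library (circles) and the control library (squares), 1 library each. The gap between the libraries is widest for Ugt8a (67.2 FPKM in Tsc1cKO, 498 FPKM in control) and Fa2h (47.8 and 282 FPKM), while Sptlc1 and Ugcg lie nearly level.

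In the galactolipid branch, Ugt8a (chromosome 3, 125568261 to 125641468, mm9), which encodes the enzyme that transfers galactose to ceramide, was at 67.2 FPKM in Tsc1cKO and 498 FPKM in control. The Tsc1cKO value was 13.5% of the control value, 7.41-fold lower, and the difference was −2.87 (−3.10 centred). Only 20 of the 12409 measured genes had a more negative difference. In control Ugt8a had the highest level per length of the 9 genes and stood at rank 114 among all gene symbols, whereas in Tsc1cKO Gal3st1 and Degs1 were above it and it stood at rank 1177.

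Fa2h (chromosome 8, 113869038 to 113917721, mm9), which encodes fatty acid 2-hydroxylase, was at 47.8 FPKM in Tsc1cKO and 282 FPKM in control. It was 5.89-fold lower in Tsc1cKO, a difference of −2.53 (−2.77 centred), and 32 measured genes had a more negative one. The FPKM of Ugt8a was 1.41 times that of Fa2h in Tsc1cKO and 1.77 times in control.

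Gal3st1 (chromosome 11, 3883639 to 3899331, mm9), which encodes the sulfotransferase that turns galactosylceramide into sulfatide, was at 160 FPKM in Tsc1cKO and 256 FPKM in control. It was 1.60-fold lower, a difference of −0.68 (−0.91 centred), and 755 measured genes had a more negative one. The enzyme gene of the last step was thus less reduced than that of the step before it. The FPKM of Ugt8a was 0.421 times that of Gal3st1 in Tsc1cKO and 1.95 times in control, a ratio taken within each library that does not depend on scaling between them. Gal3st1 was the highest of the 9 genes in Tsc1cKO, and in control it came after Ugt8a and Fa2h.

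The ceramide backbone genes did not move as 1 group. Sptlc2 (chromosome 12, 88648839 to 88729180, mm9), which encodes a large subunit of serine palmitoyltransferase, was at 23.2 FPKM in Tsc1cKO and 46.5 FPKM in control. The ratio of the FPKM was 2.003-fold lower and the difference −0.97, just short of the 2-fold rule on the scale with the pseudocount, and −1.20 when centred. Its partner Sptlc1 (chromosome 13, 53428119 to 53472730, mm9) was at 23.8 FPKM in Tsc1cKO and 22.4 FPKM in control, a difference of 0.08 as deposited and −0.14 centred. The FPKM of Sptlc1 was therefore 1.02 times that of Sptlc2 in Tsc1cKO and 0.481 times in control. Degs1 (chromosome 1, 184205901 to 184212890, mm9), which encodes the dihydroceramide desaturase, was at 72.4 FPKM in Tsc1cKO and 89.6 FPKM in control, a difference of −0.30 (−0.54 centred). In Tsc1cKO Degs1 was higher than every member but Gal3st1, and in control it was lower than all 3 galactolipid genes.

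The genes that use ceramide for other lipids were lower in level than the rest in both libraries. Sgms1 (chromosome 19, 32197217 to 32462944, mm9), which encodes the sphingomyelin synthase of the Golgi, was at 9.70 FPKM in Tsc1cKO and 18.3 FPKM in control, a difference of −0.85 (−1.06 centred). Sgms2 (chromosome 3, 131021904 to 131047841, mm9), whose product acts mainly at the plasma membrane, was at 1.31 FPKM in Tsc1cKO and 1.95 FPKM in control, a difference of −0.35 (−0.48 centred). Sgms1 made up 88.1% of the summed FPKM of both synthases in Tsc1cKO and 90.4% in control, so it was the main one in each library. Ugcg (chromosome 4, 59202422 to 59235705, mm9), which encodes glucosylceramide synthase, was at 6.52 FPKM in Tsc1cKO and 7.04 FPKM in control, a difference of −0.10 (−0.30 centred). Ugt8a and Ugcg both encode enzymes that use ceramide, and Ugt8a made up 91.2% of their summed FPKM in Tsc1cKO and 98.6% in control. The FPKM of Ugt8a was 10.3 times that of Ugcg in Tsc1cKO and 70.8 times in control.

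**Figure D2:**
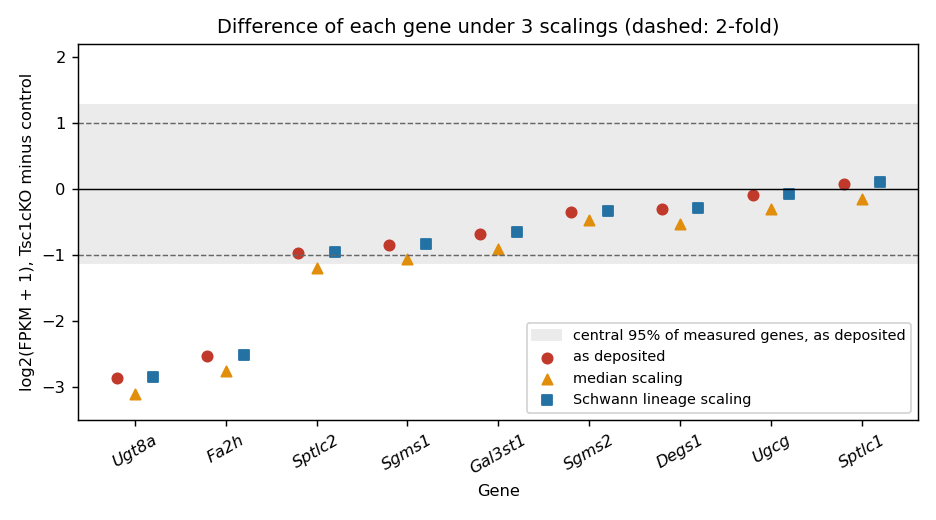
Difference of each of the 9 genes, log2(FPKM + 1) in Tsc1cKO minus control. Values are as deposited (circles), after median scaling (triangles) and after scaling to the Schwann lineage genes (squares), with dashed lines at 2-fold. The shaded range (−1.12 to 1.28) is the central 95% of measured genes as deposited, and was not redrawn for the scaled values. Ugt8a and Fa2h lie below the shaded range under all 3 scalings, Sptlc2 and Sgms1 lie near the lower dashed line, and Ugcg and Sptlc1 lie closest to 0.

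Summed over the 9 genes, expression was 412 FPKM in Tsc1cKO and 1221 FPKM in control. Most of that gap lay in the galactolipid branch, whose 3 genes summed to 275 FPKM in Tsc1cKO and 1035 FPKM in control. They made up 66.7% of the 9-gene sum in Tsc1cKO and 84.8% in control. The 3 backbone genes summed to 119 FPKM in Tsc1cKO and 159 FPKM in control, or 29.0% and 13.0% of the sum. The 3 genes for sphingomyelin and glucosylceramide summed to 17.5 FPKM in Tsc1cKO and 27.3 FPKM in control.

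**Figure D3:**
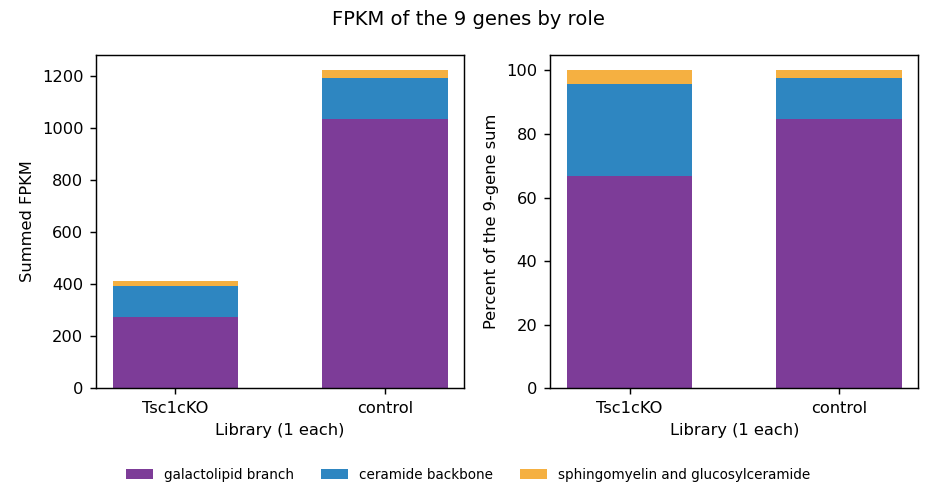
Stacked FPKM of the 9 genes by role in the Tsc1cKO and control libraries, as summed FPKM (left) and as percent of the 9-gene sum (right), 1 library each. The galactolipid branch takes 66.7% of the sum in Tsc1cKO and 84.8% in control.

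Ugt8a and Fa2h differed between the libraries about as much as genes of compact myelin proteins. Pmp22, a gene for a tetraspan protein of the compact sheath, had a difference of −2.74, and Mbp, which encodes myelin basic protein, of −2.53. The FPKM of Ugt8a was 2.94% of that of Pmp22 in Tsc1cKO and 3.25% in control, and was 2.62% of that of Mbp in Tsc1cKO and 3.37% in control. Of 9 measured compact myelin genes, 8 were at least 2-fold lower in Tsc1cKO, beside 3.06% of all measured genes as deposited. The compact myelin genes had a median difference of −2.12 (−2.35 centred). Set against Sox10, the FPKM of Ugt8a was 0.273 times that of Sox10 in Tsc1cKO and 2.35 times in control, and that of Gal3st1 was 0.648 times in Tsc1cKO and 1.21 times in control. Other lineage genes would give other ratios, since Plekha4 had a difference of −0.93 (−1.16 centred) and Sox10 of 0.21 (−0.02 centred). The Schwann lineage genes as a list had a median difference of −0.02, but they were not level one by one. As deposited, 4 of 15 were at least 2-fold higher (Sox2, Ngfr, Foxd3 and Cdh19, with differences of 2.70, 1.65, 1.40 and 1.23), beside 5.03% of all measured genes. Itga6 was at least 2-fold lower (−1.09), beside 3.06% of all genes. With the limit that the lineage genes were not level, Tsc1cKO was scaled to bring their median log2 ratio to 0. The difference was then −2.85 for Ugt8a, −2.51 for Fa2h and −0.66 for the median of the 9 enzymes. On that scaling 2 of the 9 were at least 2-fold lower, beside 2.92% of all genes, and none was at least 2-fold higher, beside 5.22% of all genes.

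Other genes of sphingolipid metabolism were read from 8 lists holding 105 symbols. Among 10 measured genes of ceramide backbone synthesis outside the 9, 3 were lower and 7 higher as deposited (6 lower and 4 higher when centred). Of all measured genes, 67.0% were higher as deposited and 49.1% when centred. At least 2-fold lower under both were 2 of the 10, beside 3.06% of all genes as deposited and 4.69% when centred. Lass2, now called Cers2, the ceramide synthase that makes the very long chain ceramides of myelin, was at 134 FPKM in Tsc1cKO and 291 FPKM in control, a difference of −1.11 (−1.34 centred). Lass4, now Cers4, another ceramide synthase, was at 12.8 FPKM in Tsc1cKO and 32.6 FPKM in control, a difference of −1.29 (−1.50 centred). Lass1, now Cers1, was at 10.3 FPKM in Tsc1cKO and 5.09 FPKM in control, and Ormdl1, which encodes a negative regulator of serine palmitoyltransferase, at 9.67 FPKM in Tsc1cKO and 5.25 FPKM in control. Values of Lass1 and Lass2 are uncertain, because their spans overlap those of neighbouring genes and no use of strand was stated. The median of this list was 0.11 as deposited and −0.10 centred.

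The fatty acids that ceramide synthases attach come from elongases, and 3 of their genes were at least 2-fold lower in Tsc1cKO. The elongase genes Elovl4 and Elovl5 were slightly higher, with differences of 0.21 (0.05 centred) and 0.23 (0.01 centred). Elovl6 was at 27.6 FPKM in Tsc1cKO and 110 FPKM in control, a difference of −1.95 (−2.18 centred). Elovl7 was at 8.60 FPKM in Tsc1cKO and 32.7 FPKM in control, a difference of −1.81 (−2.02 centred). Elovl1, which elongates saturated fatty acids to the lengths found in myelin sphingolipids, was at 110 FPKM in Tsc1cKO and 292 FPKM in control, a difference of −1.40 (−1.63 centred), and its span overlaps that of Cdc20. Slc27a1, which encodes a fatty acid transport protein, went the other way, at 100.4 FPKM in Tsc1cKO and 34.3 FPKM in control. Cyb5r3, the highest of the list, was at 327 FPKM in Tsc1cKO and 254 FPKM in control. Of 18 measured genes of this list 10 were lower and 8 higher as deposited (11 and 7 when centred), beside 33.0% (50.9% centred) of all measured genes lower. The list median was −0.13 (−0.34 centred). At least 2-fold lower as deposited were the 3 elongase genes Elovl6, Elovl7 and Elovl1, beside 3.06% of all measured genes. Acsl1 joined them at −1.08 when centred, giving 4 genes, beside 4.69% of all genes. Slc27a1 was at least 2-fold higher under both, beside 5.03% of all genes as deposited and 2.89% when centred.

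Among genes that supply the sugar and sulfate donors, none was at least 2-fold lower in Tsc1cKO as deposited or centred. At least 2-fold higher were 2 as deposited and none when centred, beside 5.03% and 2.89% of all measured genes. Of 13 measured, 6 were lower and 7 higher as deposited (8 lower and 5 higher when centred), beside 33.0% (50.9% centred) of all measured genes lower. The list median was 0.02 as deposited and −0.17 centred. Pgm1, a phosphoglucomutase gene, was at 11.1 FPKM in Tsc1cKO and 4.98 FPKM in control, a difference of 1.01 (0.80 centred). Papss1 and Papss2 encode the enzymes that make the sulfate donor used by Gal3st1. Papss1 was at 88.3 FPKM in Tsc1cKO and 118 FPKM in control, and Papss2 at 2.43 FPKM in Tsc1cKO and 4.86 FPKM in control, differences of −0.41 and −0.77. Slc35b3, which encodes a transporter of the sulfate donor, was at 8.80 FPKM in Tsc1cKO and 5.59 FPKM in control.

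Genes for moving ceramide and glycolipids between membranes differed little as deposited. All 6 were lower as deposited and when centred, beside 33.0% and 50.9% of all measured genes. None was lower by 2-fold under either, and the median was −0.09 (−0.32 centred). Col4a3bp, which encodes the ceramide transfer protein that feeds sphingomyelin synthesis, was at 11.0 FPKM in Tsc1cKO and 13.98 FPKM in control. Gltp, which encodes a glycolipid transfer protein, was at 89.6 FPKM in Tsc1cKO and 97.2 FPKM in control. Vapa was at 81.5 FPKM in Tsc1cKO and 84.8 FPKM in control, and Gltpd1 at 3.71 FPKM in Tsc1cKO and 4.28 FPKM in control.

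Downstream of Ugcg, the ganglioside and globoside genes went both ways, with 4 lower and 6 higher of 10 measured as deposited and 7 lower and 3 higher when centred. Of all measured genes, 67.0% were higher as deposited, near the 6 of 10 here, and 49.1% when centred. The list median was 0.04 as deposited and −0.16 centred. St8sia5, which encodes a sialyltransferase of ganglioside synthesis, was at 1.85 FPKM in Tsc1cKO and 18.1 FPKM in control, 9.80-fold lower, a difference of −2.75 (−2.90 centred). B4galt5 and B4galt6 both encode lactosylceramide synthases, and they differed in opposite directions. B4galt5 was at 13.7 FPKM in Tsc1cKO and 6.34 FPKM in control, a difference of 1.002 (0.78 centred). B4galt6 was at 4.30 FPKM in Tsc1cKO and 9.10 FPKM in control, a difference of −0.93 (−1.12 centred). St3gal2 was at 23.9 FPKM in Tsc1cKO and 20.3 FPKM in control, and B4galnt1 at 2.58 FPKM in Tsc1cKO and 1.65 FPKM in control.

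**Figure D4:**
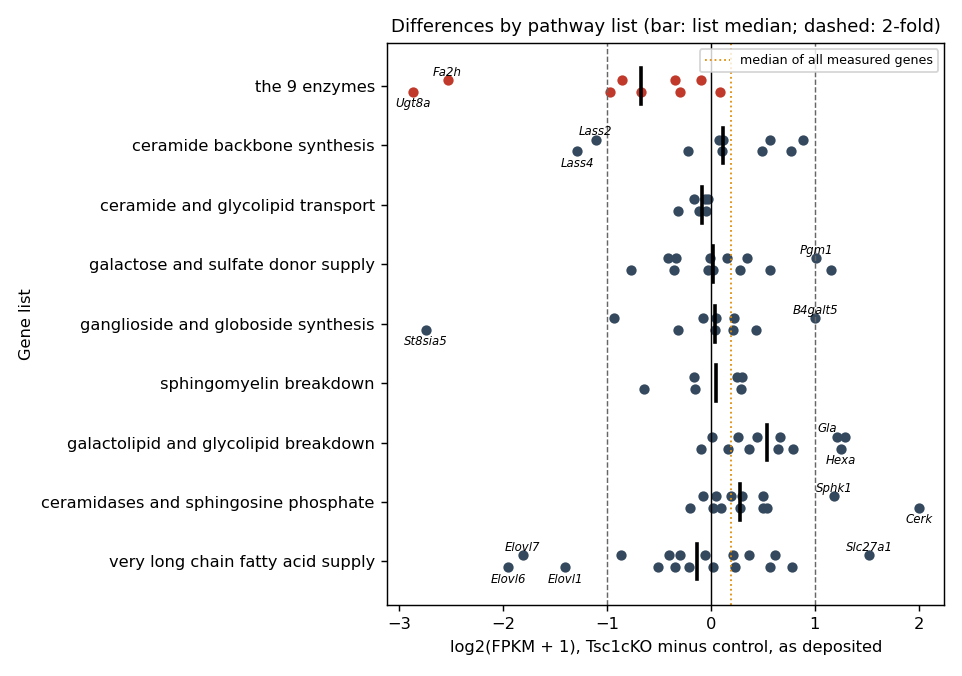
Difference of every measured gene, log2(FPKM + 1) in Tsc1cKO minus control as deposited, for the 9 enzymes (red) and the 8 pathway lists (dark), with list medians as bars, dashed lines at 2-fold, the median of all measured genes (0.20) dotted and names at most of the genes past 2-fold. Ugt8a, Fa2h and St8sia5 lie farthest to the left, and the list for galactolipid and glycolipid breakdown has the highest median (0.54).

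Genes for breaking down galactolipids and other glycolipids were mostly higher in Tsc1cKO. In that list 11 of 12 measured genes were higher (9 when centred), beside 67.0% of all measured genes (49.1% when centred). At least 2-fold higher under both were 3 of the 12, beside 5.03% of all genes as deposited and 2.89% when centred. The list median was 0.54 (0.31 centred). Hexa, which encodes a lysosomal enzyme subunit that acts on gangliosides, had a difference of 1.25 (1.01 centred). Gla, which encodes alpha-galactosidase A, was at 7.198 FPKM in Tsc1cKO and 2.53 FPKM in control. Psap, which encodes the precursor of the saposin activators, was at 649 FPKM in Tsc1cKO and 505 FPKM in control. Galc, chosen after its value was seen because its product removes the galactose that the product of Ugt8a adds, was at 18.0 FPKM in Tsc1cKO and 17.9 FPKM in control. The FPKM of Ugt8a was 3.73 times that of Galc in Tsc1cKO and 27.8 times in control.

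Among ceramidases and genes of sphingosine phosphate, 11 of 13 measured were higher as deposited, beside 67.0% of all measured genes. When centred 7 were higher, near the 49.1% of all genes. The list median was 0.28 (0.11 centred). Cerk, which encodes ceramide kinase, was at 91.3 FPKM in Tsc1cKO and 22.002 FPKM in control, 4.15-fold higher, a difference of 2.004 (1.77 centred). Sphk1, which encodes a sphingosine kinase, was at 4.61 FPKM in Tsc1cKO and 1.46 FPKM in control. Asah1, the acid ceramidase gene, was at 124 FPKM in Tsc1cKO and 87.1 FPKM in control. Sgpl1, whose product cleaves sphingosine phosphate, was at 41.5 FPKM in Tsc1cKO and 29.0 FPKM in control, and the receptor gene S1pr3 was at 30.008 FPKM in Tsc1cKO and 20.4 FPKM in control. The list for sphingomyelin breakdown had 3 lower and 3 higher of 6 measured as deposited and when centred, beside 67.0% (49.1% centred) of all genes higher. None in that list passed 2-fold, and the list median was 0.05 as deposited and −0.12 centred. Its highest gene, Smpd1, encoding acid sphingomyelinase, was at 30.4 FPKM in Tsc1cKO and 34.0 FPKM in control. Smpd2, Smpd4 and Smpdl3a had differences of 0.30, 0.29 and 0.25. Samd8, which stood on this list but encodes a relative of the sphingomyelin synthases, was at 16.7 FPKM in Tsc1cKO and 26.6 FPKM in control, a difference of −0.64 (−0.86 centred).

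Markers of other cells in the nerve differed between the libraries as well, and their part in the values above was not tested. Of all measured genes, 67.0% were higher and 33.0% lower as deposited, and 49.1% and 50.9% when centred. Skeletal muscle markers were higher in 7 of 7 measured, with a summed level of 697 FPKM in Tsc1cKO and 326 FPKM in control, led by Acta1, Mylpf and Ckm. Fibroblast markers, led by Col1a1, Col3a1 and Col1a2, summed to 6641 FPKM in Tsc1cKO and 10167 FPKM in control, with 7 of 10 lower. Endothelial markers, led by Egfl7, Cldn5 and Cdh5, summed to 145 FPKM in Tsc1cKO and 175 FPKM in control, and perineurial markers, led by Itgb4, Slc2a1 and Cldn1, to 112 and 138 FPKM. Lower as deposited and when centred were 10 of 10 measured endothelial and 6 of 7 measured perineurial markers. Macrophage markers, led by C1qc, C1qa and C1qb, summed to 379 FPKM in Tsc1cKO and 272 FPKM in control, and adipocyte markers, led by Fabp4, Cfd and Adipoq, to 358 and 282 FPKM. Higher as deposited were 8 of 10 measured macrophage and 6 of 7 measured adipocyte markers (5 and 3 when centred). Pericyte and smooth muscle markers summed to 149 FPKM in Tsc1cKO and 152 FPKM in control, with 4 lower and 5 higher of 9 measured. None of 7 matched T and NK cell markers reached 1 FPKM in either library. Melanocyte markers summed to 1166 FPKM in Tsc1cKO and 16.1 FPKM in control, nearly all from Tyrp1 and Pmel, and the span of Pmel overlaps that of Dgka. Of 4 measured melanocyte markers 3 were at least 2-fold higher, beside 5.03% of all measured genes as deposited. The other was Mitf, at 4.38 FPKM in Tsc1cKO and 5.72 FPKM in control. Dct, chosen after its value was seen, was at 4.98 FPKM in Tsc1cKO and 0.818 FPKM in control, while Mlana and Slc45a2 were listed at 0 in both libraries and Tyr stayed below 1 FPKM in both.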

How the data were processed

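Total RNA from sciatic nerve of mice at postnatal day 7 was extracted with Trizol and sequenced from Illumina TruSeq libraries, per the labels' protocols, with 1 Tsc1cKO and 1 control library grouped by the labelled genotype. Per the file headers, the authors deposited 1 FPKM value per gene and library. The submitters' processing notes name CASAVA, TopHat, Cufflinks and the build mm9 without versions or roles. The annotation and the total behind the scaling were not given in the sources used here. Starts of deposited spans were raised by 1 base to count from 1.

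FPKM of entries sharing a symbol were summed, giving 22096 symbols, and 3 symbols with a status other than OK were dropped. Genes that reached 1 FPKM in either library were called measured. Differences are log2(FPKM + 1), Tsc1cKO minus control, and genes were counted as 2-fold higher or lower from an absolute difference of 1 upward. With 1 library per group there is no test, p-value or error, and no fragment counts give a depth. The 9 members and the gene lists were chosen with earlier results of these data known. Of 220 listed symbols 5 had no usable value. Named genes were the members, up to 4 genes per pathway list with the largest absolute difference, the highest gene of each such list, and the 3 highest of each marker list; Sox10, Sox2, Ngfr, Foxd3, Cdh19, Itga6, Acsl1, Dct, Galc, Mlana, Slc45a2 and Tyr are named outside this rule, and some genes that meet it are not reported here. The counting rule was tested on simulated data. Alternatives were pseudocounts of 0.1 and 5, no filter or 5 FPKM, scaling by the median ratio, upper quartile, trimmed mean, a sum of 1000000 (TPM) or the Schwann lineage genes, thresholds of 1.5-fold and 3-fold, and, added after seeing the data, scaling to Sox10. Python 3.11.15, pandas 2.3.3 and matplotlib 3.10.9 were used.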

Additional observations from a re-analysis of the deposited data

How the results depend on the processing

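The count of the 9 enzyme genes at least 2-fold lower in Tsc1cKO was 2 as deposited. It was 4 after scaling by the median ratio, the trimmed mean or the upper quartile, after rescaling to TPM and after scaling to Sox10. In each of these Sptlc2 and Sgms1 joined Ugt8a and Fa2h. The count was 5 at a threshold of 1.5-fold. Of all measured genes, 3.06% were at least 2-fold lower as deposited and 4.69% after scaling by the median ratio. No such share is given for the other settings named here or for 1.5-fold, so those counts cannot be read against all genes. The median difference of −0.68 passes 1.5-fold and not 2-fold. Ugt8a ranged from −3.10 to −2.80 and Fa2h from −2.77 to −2.44 over 10 settings, and both stayed past 2-fold and 3-fold. Sptlc1 changed sign under 5 of 11 alternatives, from 0.08 down to −0.14, and the other 8 members kept their sign in all of those run. The share of Sgms1 in both sphingomyelin synthases differed by −2.33 percentage points (Tsc1cKO minus control), and by −4.55 points with 1 FPKM added to each gene. Of 38 named pathway genes, 18 crossed the 2-fold or other threshold or changed sign under at least 1 alternative, only St3gal2 changed sign, and none that passed 2-fold reversed. No paired analysis was possible because each group has 1 library and no test was made. Depth is unknown, so the precision of low genes such as Sgms2 cannot be given.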
